A study of Homo sapiens with 6 samples.

Results

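Binding of the transcriptional co-activator YAP, of its DNA-binding partner TEAD and of a tagged YAP mutant was examined around 7 human genes: TERT, CLPTM1L, HIF1A, SNAPC1, GRIN2B, ERBB4 and TSEN15. The genes lie at 5 places in the genome, because TERT and CLPTM1L are neighbours, as are HIF1A and SNAPC1. They were chosen by the scores and overlaps of the same peak lists, as genes beside strong sites where the peaks of all 3 lists meet, so those scores and overlaps are given as a description and not tested. All peaks within 100 kb of the 7 gene spans were taken, which gave 5 of the 3867 peaks in the YAP list, 17 of 9321 in the TEAD list and 14 of 9616 in the YAP5SA list. Of the 73 sites in the genome where the peaks of all 3 lists meet, 5 were among them, 1 at each place.

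The cells were CClp1, an established human bile duct cancer line, and the assay was ChIP-seq, in which DNA cross-linked to a protein is recovered and sequenced. The libraries used here were made with a YAP antibody, with a TEAD antibody (the design text names TEAD1), and by capture of Flag-Bio-YAP5SA, a tagged YAP in which serines phosphorylated by the LATS kinases are replaced by alanine. The series has 6 libraries here, 1 per group; those of IgG, input DNA and BirA, which the design text gives as the control of the tagged protein, were not used, so no background from them stands beside the values. With 1 library per group no value has a replicate error, and whether the tagged protein was made above the level of the cells' own YAP is not given in the sources used here.

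YAP has no DNA-binding domain of its own and is brought to DNA by TEAD proteins, which recognise a short motif. LATS kinases of the Hippo pathway phosphorylate YAP and keep it out of the nucleus, and the alanine mutant escapes that control. Much of the known YAP and TEAD binding lies at enhancers away from gene starts, so the gene nearest to a site is not necessarily the gene it acts on. The files give no expression, and no value here says whether any of the 7 genes responds to these sites.

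Each peak carries the score of the authors' peak caller, with a lowest value of 50 and a highest of 3100 in every list. Its range is that of 10 times the negative log10 of a p-value, and it was taken as such, so that a higher score stands for a stronger local excess of reads in that library. The top value was held by 8 TEAD, 6 YAP and 1 YAP5SA peaks. Being the same in every list, it may be a ceiling, so a score of 3100 can stand for 3100 or more. Read depth is unknown for all 3 libraries, so scores were ranked within their own list only. The median score was 76.2 in the TEAD list, 57.9 in the YAP list and 57.0 in the YAP5SA list. Positions are in hg19, and spans of genes are known to 1 kb. Whether a site falls in an exon or an intron was not established, since no annotation or sequence of that build was used.

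TEAD peaks at the 5 sites were at or close to the highest score in the list. At TERT and CLPTM1L, at HIF1A and SNAPC1 and at GRIN2B the TEAD peak scored 3100, the highest value listed, which 8 TEAD peaks share. The TEAD peak in ERBB4 scored 2996 (rank 9 of 9321) and that in TSEN15 scored 2859 (rank 11). The 5 sites thus all stood within the first 11 of the TEAD list.

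In the YAP5SA list 3 of these sites held the highest ranks and the other 2 stood further down. The sites at TERT and CLPTM1L (score 3100), at HIF1A and SNAPC1 (2562) and at GRIN2B (2152) were the 3 highest peaks of the YAP5SA list, in that order. The next peak of that list, on chromosome 4 from 1317574 to 1318746, scored 876. The ERBB4 and TSEN15 sites scored 284 and 283, at ranks 38 and 39 of 9616. In the TEAD list the first 3 sites share the value 3100 and cannot be ordered among themselves, so the spacing of the 5 sites was not compared between lists.

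In the YAP list the same 3 sites had the higher ranks. Its peak at TERT and CLPTM1L scored 856, at HIF1A and SNAPC1 528, at GRIN2B 424, in TSEN15 126 and in ERBB4 107. The ranks were 19, 24, 31, 127 and 179 of 3867. Many of the YAP peaks ranked above them lay on contigs or near long stretches without any peak: with those left out, a setting chosen after seeing the data, the ranks became 2, 4, 6, 55 and 88 of 3273. The YAP and YAP5SA lists both put the site at TERT and CLPTM1L first of the 5, that at HIF1A and SNAPC1 next and that at GRIN2B after it. The other sites changed places: TSEN15 came before ERBB4 in the YAP list, and ERBB4 (284) before TSEN15 (283) in the YAP5SA list. The genes were chosen by these scores, so the shared order is a description only.

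**Figure D1:**
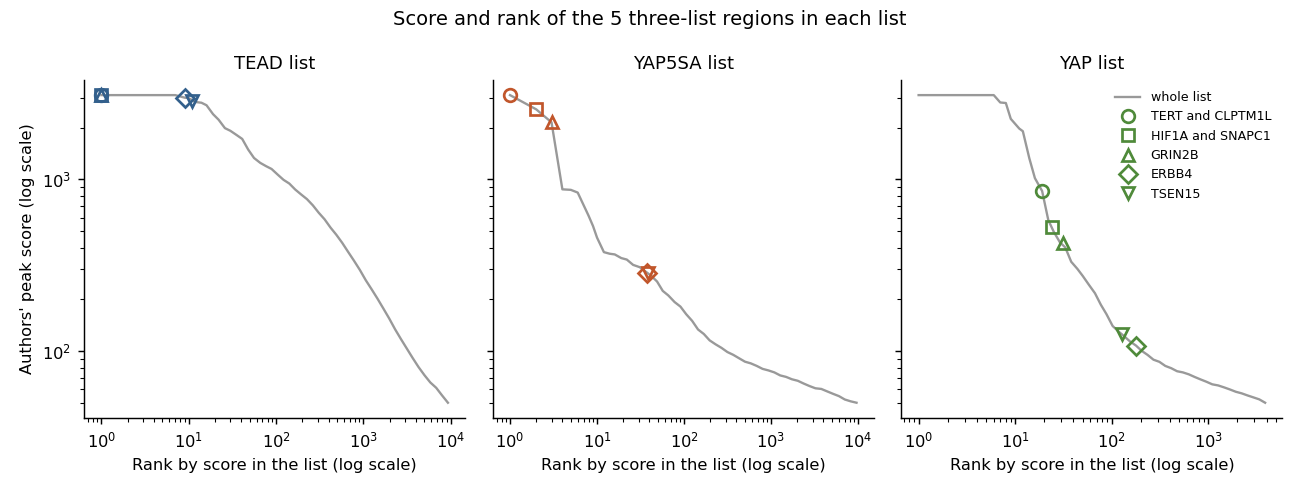
Score of the best peak of each list at the 5 sites (open symbols) against its rank in that list, both on log scales, with the whole list as a grey line. The 5 symbols sit at the top of the TEAD curve, while in the YAP5SA panel 3 symbols hold ranks 1 to 3 and the ERBB4 and TSEN15 symbols lie together at scores of 284 and 283.

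Among the 73 sites with peaks of all 3 lists, 10 had a TEAD score of 2859 or more. That limit is the score of the TSEN15 site, the lowest of the 5 described here, so all 5 are among the 10. Over those 10 the YAP5SA score ran from 108 to 3100 and the YAP score from 51.8 to 856. The sites at TERT and CLPTM1L, at HIF1A and SNAPC1 and at GRIN2B came 1, 2 and 3 of the 73 by YAP5SA score, and ERBB4 and TSEN15 came 16 and 17. By YAP score the 5 came 6, 8, 10, 20 and 15 in the order TERT and CLPTM1L, HIF1A and SNAPC1, GRIN2B, ERBB4 and TSEN15. In the 66 sites left without contigs and peaks near peak-free stretches they came 1, 2, 4, 14 and 9. The median scores of all 73 sites were 1055 for TEAD, 127 for YAP5SA and 74.3 for YAP. Since the 5 sites were chosen on these scores, their place among the 73 is a description only.

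**Figure D2:**
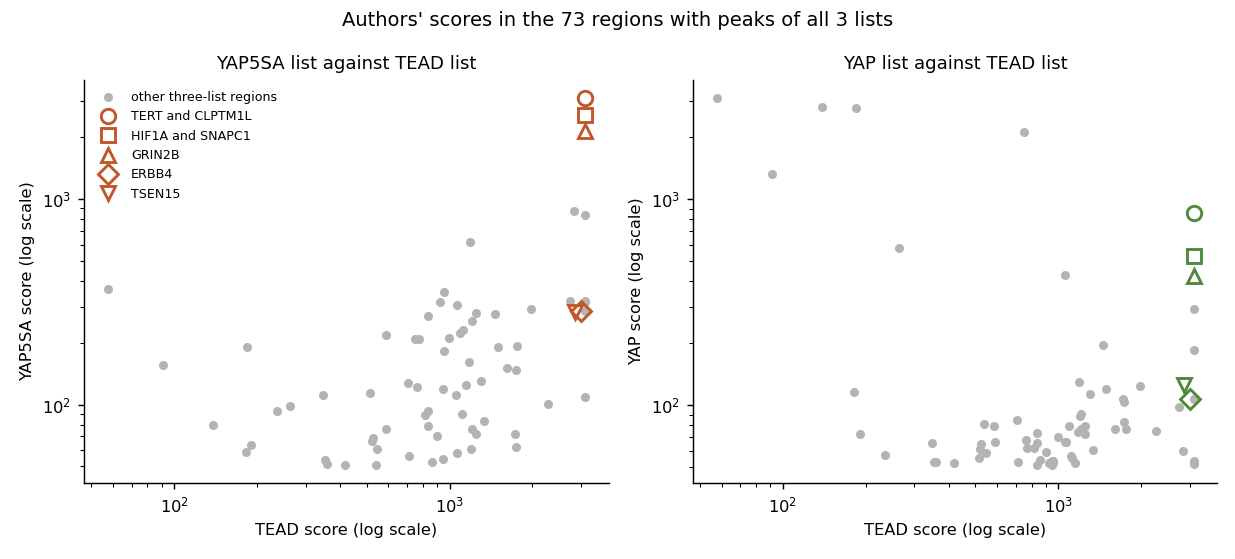
YAP5SA score (left) and YAP score (right) against the TEAD score at the 73 sites with peaks of all 3 lists, all axes on log scales; each point is 1 site and open symbols mark the 5 described here. The symbols for TERT and CLPTM1L, HIF1A and SNAPC1, and GRIN2B stand above every other site in the YAP5SA panel, and those for ERBB4 and TSEN15 lie among the others.

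The share of peaks that met both other lists was read against the whole lists. All 5 YAP peaks near the genes met a TEAD and a YAP5SA peak, against 70 of 3867 in the whole YAP list (1.81%). Of the 17 TEAD peaks 5 did (29.4%, exact Clopper-Pearson 95% interval 10.3 to 56.0, counting error only), against 77 of 9321 (0.826%). Of the 14 YAP5SA peaks 6 did (42.9%, 17.7 to 71.1), against 73 of 9616 (0.759%). The genes were chosen for such overlaps, so these peaks are not random draws and the intervals are no test against the whole lists. Nothing is read from these differences. The other 12 TEAD and 8 YAP5SA peaks near the genes met no peak of another list, and the YAP list had no peak there beyond the 5 sites. The share of each whole list that met no other list is not given here. Nothing is therefore read from peaks that met no other list, here or at the single places below.

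TERT encodes the catalytic subunit of telomerase, and CLPTM1L a membrane protein named for its likeness to CLPTM1. The spans are chromosome 5 from 1253 to 1295 kb for TERT and from 1318 to 1345 kb for CLPTM1L, both read towards lower coordinates. The site where the lists met was chr5:1326297-1329202, inside the span of CLPTM1L, 16 kb from its start and 8 kb from its end. From the start of TERT it was 31 kb, on the upstream side. It was the widest of the 5: the TEAD peak covered 2906 bp, the YAP5SA peak 2821 bp and the YAP peak 2727 bp, against list medians of 214, 164 and 312 bp. The 3 peaks had nearly the same outline, with starts within 119 bp, ends within 60 bp and centres within 29.5 bp of each other. The stretch common to them was 2727 bp, 93.8% of the total, the highest share among the 73 sites, whose median was 40.4%. A given offset takes a smaller share of a wide site, and the median width of the 73 sites was 709 bp. By centre range, from narrowest to widest, this site came 3 of the 73.

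The window of 292 kb around the pair held 1 TEAD peak (3.42 per Mb, against 3.07 over the chromosomes), 1 YAP peak (3.42 against 1.27) and 2 YAP5SA peaks (6.85 against 3.19), the peaks of the site included. The next TEAD peak on either side was 1013 kb away and the next YAP peak 440 kb away. A single further YAP5SA peak lay 26.5 kb off, at chr5:1355752-1356049, 11 kb upstream of the start of CLPTM1L. It scored 68.2, rank 1861 of its list. No peak of any list fell inside the span of TERT.

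HIF1A encodes the oxygen-regulated subunit of the hypoxia-inducible factor HIF-1, and SNAPC1 a subunit of the complex that starts transcription of small nuclear RNA genes. HIF1A spans chromosome 14 from 62162 to 62215 kb and SNAPC1 from 62229 to 62263 kb, both read towards higher coordinates. The lists met at chr14:62221863-62222485, in the interval between them, 7 kb past the end of HIF1A and 7 kb upstream of the start of SNAPC1. From the start of HIF1A the distance was 60 kb. The peaks were narrower than those at CLPTM1L: 613 bp for TEAD, 544 bp for YAP5SA and 517 bp for YAP. They were still wider than 95.6%, 99.3% and 88.1% of the peaks of their lists. Their centres lay within 81.5 bp of each other, and 449 bp were common to all 3 (72.1%). The TEAD peak here and that of 2906 bp at CLPTM1L both scored 3100. This is the highest value in the list, so they cannot be ordered by score.

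The window of 301 kb held 1 TEAD peak (3.32 per Mb, against 3.07 over the chromosomes), 1 YAP peak (3.32 against 1.27) and 2 YAP5SA peaks (6.64 against 3.19), again with those of the site. The next TEAD peak was 824 kb away and the next YAP peak 1130 kb away. A weak YAP5SA peak lay 40.1 kb off inside the span of HIF1A, at chr14:62181555-62181761, with a score of 85.5 (rank 569), 20 kb from the gene's start. No other site on chromosome 14 had peaks of all 3 lists.

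GRIN2B encodes a subunit of the NMDA type of glutamate receptor, best known from neurons. Its span on chromosome 12 runs from 13714 to 14133 kb and is read towards lower coordinates. The site was chr12:13678052-13679908, 34 kb past the end of the gene and 453 kb from its start. In the GRCh38 order of coding genes EMP1 is the next on that side, so the site lies between GRIN2B and EMP1, and the rule names it by GRIN2B only. EMP1 encodes an epithelial membrane protein. The distance to EMP1 in hg19 was not established.

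The outline at this site differed most between the lists. The TEAD peak was 1793 bp wide. YAP5SA had 2 peaks under it: one of 281 bp with a score of 81.9 (rank 689) and, just beside it, one of 812 bp with a score of 2152. The YAP peak of 930 bp touched both. The strong YAP5SA peak and the YAP peak lay towards the higher-coordinate end, with centres 554.5 and 361.5 bp from the TEAD centre, and 678 bp (36.5%) were common to the TEAD, YAP and stronger YAP5SA peaks. This centre range was the 67th of the 73 sites from narrowest to widest, against a median of 134 bp. A second TEAD peak of 122 bp, score 65.5, lay 0.743 kb to the lower side. The only other peak within 100 kb of GRIN2B was a YAP5SA peak at chr12:14147977-14148152 with a score of 77.1, which lay 15 kb upstream of the gene's start. No peak fell inside the 419 kb of the gene span.

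**Figure D3:**
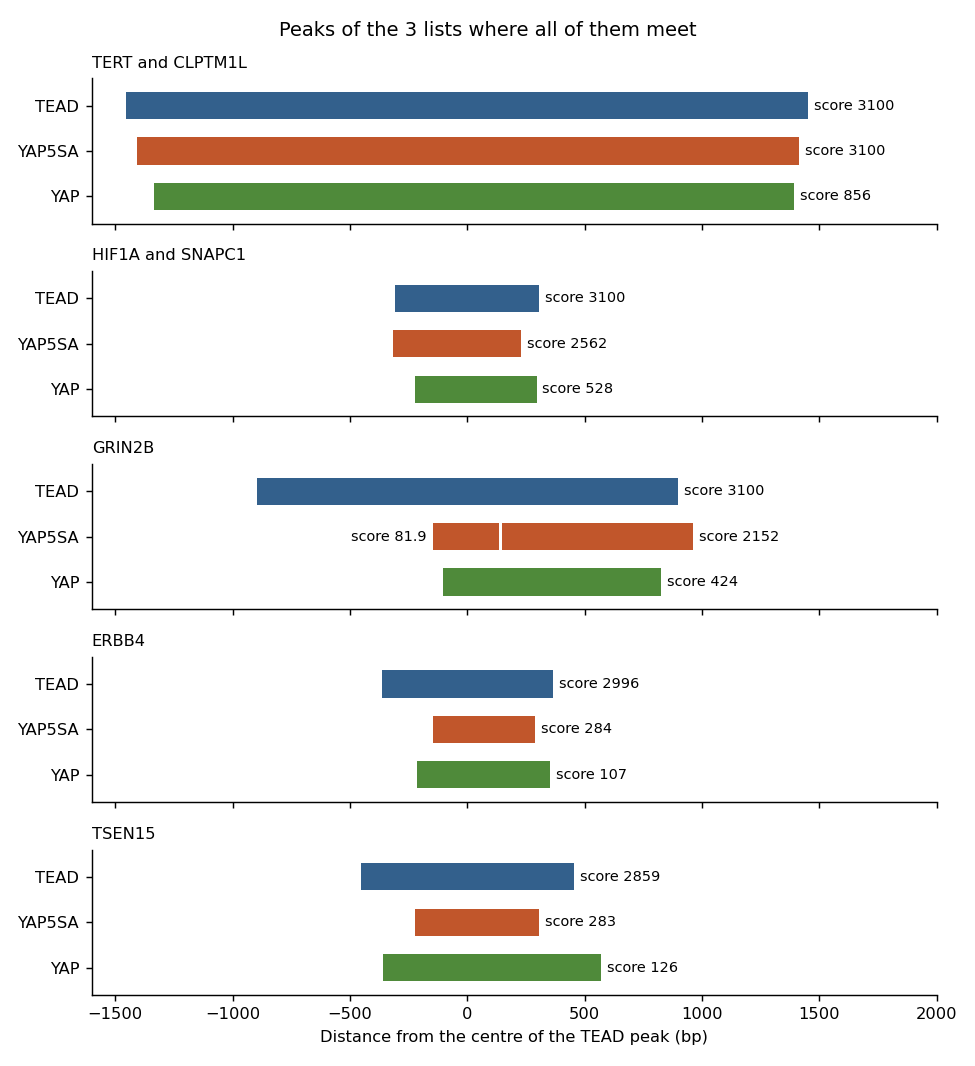
Extent of the TEAD, YAP5SA and YAP peaks at the 5 sites, as distance in bp from the centre of the TEAD peak, with the authors' score beside each bar. The 3 bars nearly coincide at TERT and CLPTM1L, where 93.8% of the extent is common. At GRIN2B, where YAP5SA has 2 peaks, the YAP bar and the stronger YAP5SA bar are displaced to the right of the TEAD centre.

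ERBB4 encodes a receptor tyrosine kinase of the EGF receptor family that binds neuregulins. It has the longest span of the 7, 1163 kb on chromosome 2 from 212240 to 213403 kb, read towards lower coordinates. The lists met at chr2:213316368-213317097, inside the span and 86 kb from its start, at 7.42% of its length. Widths were 730 bp for TEAD, 568 bp for YAP and 436 bp for YAP5SA. The centres lay within 70 bp, the YAP5SA peak was wholly inside the others, and 436 bp (59.7%) were common.

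Of the 17 TEAD peaks 9 were in ERBB4, whose window of 1363 kb is also the longest of the 5. All 9 lay in the part of the gene next to its start, from 20.7 to 174 kb away, and none in the remainder of the 1163 kb. Besides the site itself the strongest was chr2:213349259-213349830 with a score of 947 (rank 139), 32.2 kb away towards the start, which met no YAP or YAP5SA peak. The others scored 186, 184, 143, 70.6, 57.6, 57.6 and 55.2. In contrast, 4 of the 6 YAP5SA peaks in the span lay 528 to 782 kb from the site, in the part of the gene without TEAD peaks, and 1 more lay 21.0 kb from it. These 5 scored from 52.2 to 68.8 with widths of 134 to 240 bp. The strongest of them was chr2:212533834-212534073, with a score of 68.8 (rank 1656). With the peaks of the site included, TEAD peaks numbered 6.60 per Mb in the window of ERBB4, against 3.07 over the chromosomes. YAP5SA peaks numbered 4.40 per Mb against 3.19, and YAP peaks 0.734 against 1.27. The window of TSEN15 held 18.0 TEAD peaks per Mb, from 4 peaks in 222 kb. The genes were chosen for their sites, so these densities are a description only. The next site with peaks of all 3 lists was 735 kb away, outside the window.

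TSEN15 encodes a subunit of the endonuclease that removes introns from transfer RNA. Its span of 22 kb runs on chromosome 1 from 184021 to 184043 kb, and the gene is read towards higher coordinates. The site, chr1:184025811-184026836, lay inside the span, 5 kb from its start, the shortest distance from a gene start among the 5. The TEAD peak was 909 bp wide, the YAP peak 929 bp and the YAP5SA peak 529 bp. Centres lay within 107 bp, and the whole YAP5SA peak (529 bp, 51.6% of the extent) was common to all 3. The TEAD list had 3 more peaks, on the side of COLGALT2, the coding gene before TSEN15. They lay 30.8, 58.2 and 67.3 kb from the site, scored 55.2, 144 and 121, and met no other list. YAP and YAP5SA had no further peak within 100 kb.

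**Figure D4:**
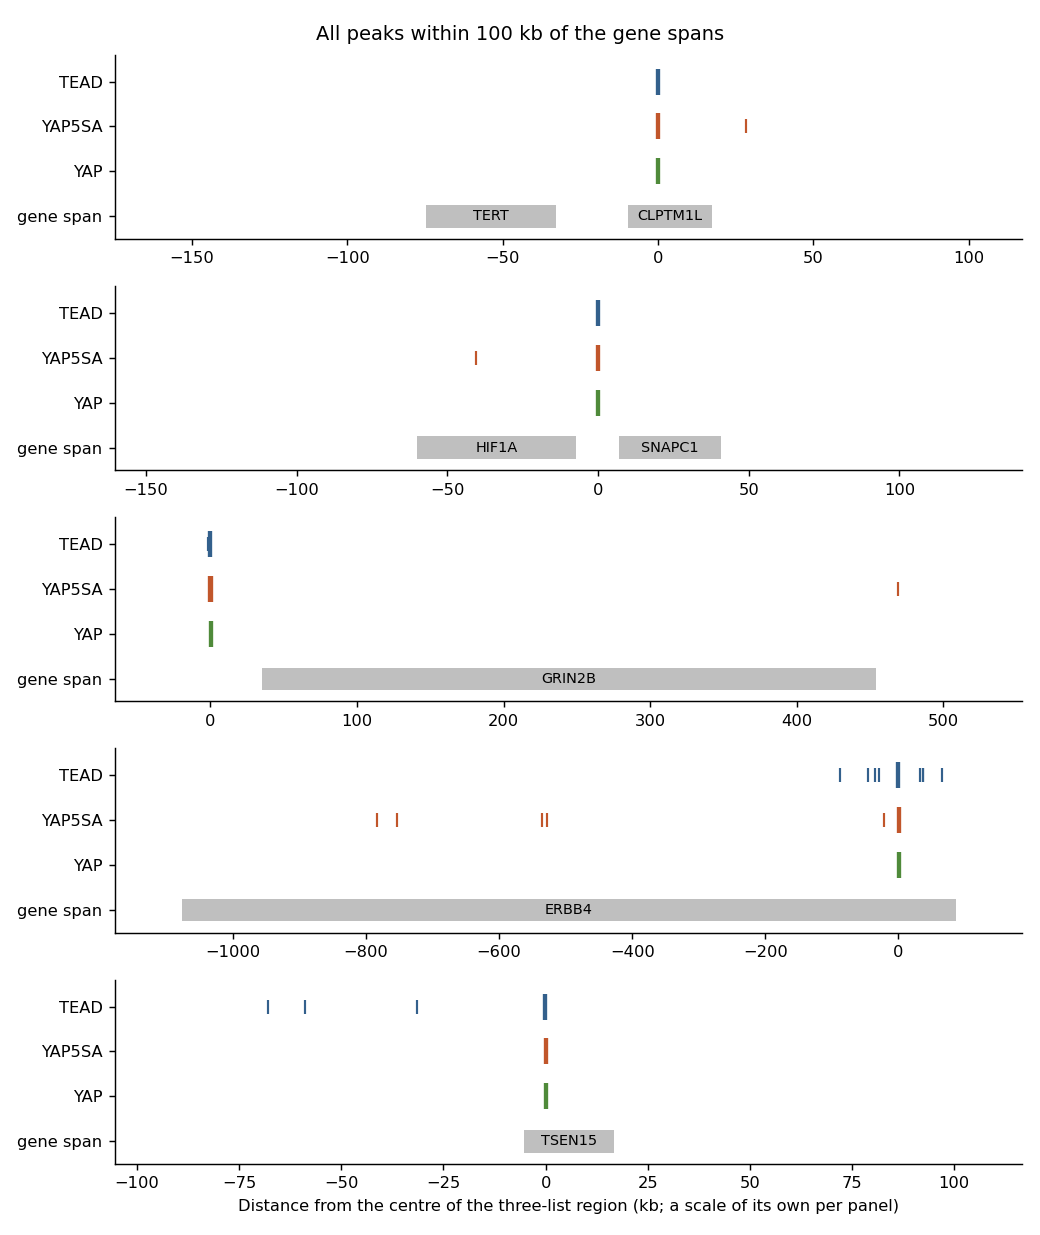
All peaks of the 3 lists within 100 kb of the gene spans (grey bars), as distance in kb from the centre of the site where the lists meet; the scale differs between panels, and thick ticks mark peaks at that site. TEAD ticks gather at the right end of the ERBB4 span, within 174 kb of the gene's start, and the places of TERT and CLPTM1L and of HIF1A and SNAPC1 hold 1 TEAD tick each.

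Across the 7 genes, no peak of any list reached a gene start. The nearest TEAD peak was 5 kb from the start of TSEN15, 7 kb from that of SNAPC1, 16 kb for CLPTM1L, 21 kb for ERBB4, 31 kb for TERT, 60 kb for HIF1A and 278 kb for GRIN2B. For GRIN2B this nearest TEAD peak, with a score of 112, lay beyond the 100 kb of the window on the upstream side.

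The peaks beside the 5 sites scored lower than the strongest peak of their list at each site. The 12 other TEAD peaks had a median score of 95.7 (from 55.2 to 947), and 6 of them were above the list median of 76.2. The 8 other YAP5SA peaks had a median of 67.6 (from 52.2 to 85.5), and 7 were above the list median of 57.0. Of these 8, 6 lay inside a gene span, 5 of them in ERBB4. The span of ERBB4 fills 1163 kb of its window of 1363 kb, so nothing is read from this placement. Widths of the 8 peaks were 134 to 298 bp. All 8 scored below every YAP5SA peak at the 5 sites other than the weaker of the pair at GRIN2B. The sites were chosen by their scores, so the lower scores beside them are a description only.

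The limit of 100 kb cut through no group of peaks. The outermost peak taken in was 62.5 kb from a span, a TEAD peak near TSEN15 with a score of 121. The first peaks left out at each place were YAP5SA peaks 153 kb from HIF1A and SNAPC1 (score 55.4), 158 kb from ERBB4 (50.2) and 284 kb from TSEN15 (51.5), a TEAD peak 210 kb from GRIN2B (65.5) and a YAP peak 424 kb from TERT and CLPTM1L (63.0).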

How the data were processed

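Peak lists of the YAP, TEAD and Flag-Bio-YAP5SA libraries were analysed. Reads were aligned to hg19 with Bowtie2, per the submitters' processing notes. The authors deposited 1 list per library, with a score per peak; peak names begin with MACS, while version, threshold and control library of the caller are not given in the sources used. Calling of the lists against a common control is possible and was not tested. Coordinates were read as half-open from 0 and are printed from 1; the start of 1 TEAD peak below 0 was set to 0.

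Peaks within 100 kb of the 7 spans were taken. The genes, spans and lists were chosen with earlier results of these data known. A site was a run of peaks of any list, each overlapping the run by at least 1 bp, that held all 3 lists. Shape and rank use the highest-scoring peak of each list; tied scores share the best rank. Each such site and the strongest other peak of each list at each place are named. Alternatives were windows of 50 kb and 200 kb, peaks within 500 bp, a reciprocal overlap of 50%, window membership by peak centre, centres within 250 bp, each list limited to its higher-scoring 50%, and, added after seeing the data, omission of contigs and of peaks less than 2 Mb from any peak-free stretch longer than 2.5 Mb. Direction of reading came from the RefSeq promoter table (GRCh38.p14), which holds 6 of the 7 genes; for TSEN15 it is background knowledge. Gene order came from the RefSeq GRCh38.p14 gene table. No test was made. Code recovered 200 of 200 sites planted in simulated lists, and overlap counts equalled those of bedtools 2.31.1. Python 3.11.15, numpy 2.4.6, scipy 1.17.1 and matplotlib 3.10.9 were used.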

Additional observations from a re-analysis of the deposited data

How the results depend on the processing

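Of 41 recomputed values for 20 results, 35 kept their size, by the spread of the share's interval or within 1.5 times. That interval is wide (10.3 to 56.0%), so a TEAD share of 45.5% with the higher-scoring 50% of each list counted as kept. The 5 sites were chosen for strong scores and overlaps, so their return under other settings is a description only. Sites with peaks of all 3 lists numbered 4 in place of 5 with a reciprocal overlap of 50% and with peak centres within 250 bp, GRIN2B being the site lost in both, where the YAP5SA and TEAD centres lie 554.5 bp apart. The 50 kb and 200 kb windows, peaks within 500 bp, the higher-scoring 50% of every list and omission of peaks near peak-free stretches gave 5. The higher-scoring 50% left 11 of the 17 TEAD peaks, by its own construction. Without contigs and peaks near the 26 peak-free stretches, chosen after seeing the data, YAP ranks moved to 2 (TERT and CLPTM1L), 4 (HIF1A and SNAPC1), 6 (GRIN2B), 88 (ERBB4) and 55 (TSEN15), while the 10 TEAD and YAP5SA ranks stayed within 1.5 times. Leaving out a replicate was not feasible. No paired analysis was possible because there is only 1 library per group. Unknown read depth limits how many weak peaks were listed, so an empty stretch is not a stretch shown to be unbound.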

Other observations

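The letters GGAATG, the core of the TEAD motif, and TGANTCA, the AP-1 motif, were searched on both strands in the RefSeq windows from 250 bases before to 50 after gene starts (GRCh38.p14). Neither was present in the 9 windows of the 6 genes found there (TSEN15 is not in the table). Of all 35116 windows, 14% and 7.71% held them. With only 9 windows, some of the same gene, the absence is not read as a difference from those shares. No peak of the 3 lists lay at these starts, and the absence of the letters says nothing of the sites described, whose sequence was not read.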
